A study of Arabidopsis thaliana with 54 samples.

Results

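The 7 genes described here are 5 phytochrome-interacting factors, PIF1 (AT2G20180), PIF3 (AT1G09530), PIF4 (AT2G43010), PIF5 (AT3G59060) and PIF7 (AT5G61270), and the bZIP factors HY5 (AT5G11260) and HYH (AT3G17609). They were chosen by gene identifier and by no rule on measured values, from the 36632 genes of a table of raw RNA-seq counts. Earlier results of these data were known when they and the gene lists below were chosen. The shares of all genes given beside their counts are therefore for scale and no test of enrichment. All 7 were among the 20720 genes that passed a filter on low counts. Whole rosettes of Arabidopsis thaliana Col-0 were sequenced in 54 libraries, which form 18 groups of 3 by condition and time. C28PLT plants were cold-primed at 28 days for 3 days at 4 °C, spent a lag of 7 days back in the warm, and were sampled during a second cold treatment, called triggering. C35P plants, the developmental control for the added week of growth, had their first cold at 35 days. C28P plants had their first cold at 28 days. Sampling was just before transfer to 4 °C (0 h) and 2, 4 and 6 h, then 12 h and 24 h, into the cold. No age is labelled for C28PLT plants at their second transfer. Warm growth was at 20 °C by day and 16 °C by night under 200 µmol quanta of light, while light in the cold was 90 µmol, both with a 16 h day. The cold groups therefore also had dimmer light, and only the 24 h libraries share a time of day with 0 h. The effect of cold can therefore not be told apart from that of dimmer light at any time, nor from the daily rhythm at 2 to 12 h. Each library pools 5 samples, and its replicate number names an independent experiment (Exp1 to Exp3).

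PIFs are bHLH factors that bind G-box and related E-box elements and drive elongation growth. Active phytochrome binds them, which leads to the phosphorylation and breakdown of several of them, so PIF activity is high in darkness and shade. HY5 and HYH promote light-type development, including anthocyanin and flavonol synthesis and chloroplast build-up, and are broken down in darkness through the COP1/SPA ubiquitin ligase. PIF4 is best known for growth in warm conditions, while HY5 protein is known to be stabilised at low temperature in Arabidopsis seedlings. Transcripts were measured here, not proteins, and in bulk rosettes fewer cells of a type and less RNA per cell cannot be told apart.

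Total counts ranged from 23408399 to 34452480 per library, with a median of 28968742. Summed rosette leaf markers (RBCS1A, LHCB1.3 and PSBO1) lay between 43669 and 96154 CPM (counts scaled to library size), summed root markers (COBL9, EXPA7 and RHD6) reached at most 0.167 CPM, and summed floral markers (AP3, PI, AG, SEP3 and LFY) 0.619 to 5.83 CPM. The floral sums spanned 1.86 to 5.83 CPM in C28PLT libraries, 0.704 to 4.59 CPM in C35P libraries and 0.619 to 4.70 CPM in C28P libraries, and their part in the results was not tested. The C28P 0 h library of Exp1 stood apart in its clock genes: PRR5 was at 77.2 CPM there, against 0.949 and 1.14 CPM in the other C28P 0 h libraries. TOC1 was at 28.1 CPM in it, against 4.92 and 3.14 CPM. Calls of the members in C28P that change without this library, and those of the listed genes named below at 24 h, are given with both values. Over all genes tested, log2 CPM of each library was also correlated with the mean of the rest of its group. The lowest value was that of C35P 24 h Exp1 (0.938), followed by C28P 0 h Exp1 (0.947) and C28PLT 24 h Exp2 (0.950). Comparisons of C28PLT with C35P at 24 h and the naming of listed genes by C35P at 24 h rest in part on such libraries.

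Per kilobase of exon, HYH was the most abundant of the 7 transcripts before cold and PIF3 the least. At 0 h, HYH averaged 31.7 ± 3.39 CPM per kb in C28PLT, 35.2 ± 6.99 in C35P and 34.3 ± 10.1 in C28P (SD, n = 3 each). PIF5 followed at 22.9 ± 2.15, 24.8 ± 1.06 and 22.3 ± 5.44 CPM per kb in the same order of conditions. PIF4 averaged 16.3 ± 4.51, 15.6 ± 1.84 and 15.5 ± 2.95 CPM per kb, and HY5 13.6 ± 0.737, 10.0 ± 3.04 and 10.9 ± 2.31 CPM per kb. PIF7 and PIF1 were far lower, with condition means of 3.30 to 4.01 and 2.78 to 3.78 CPM per kb, and PIF3 averaged 0.887 to 1.15 CPM per kb. The raw counts behind these levels ran over all 54 libraries from 14 to 323 for PIF1 and from 40 to 182 for PIF3, the members most limited by depth, and from 496 to 2910 for HYH. By 24 h in the cold, PIF4 was close to PIF3 and PIF1, at 1.04 ± 0.106 CPM per kb in C28PLT, 1.22 ± 0.587 in C35P and 1.00 ± 0.147 in C28P, and HY5 exceeded PIF5 in every condition, at 27.5 ± 5.61 against 8.95 ± 1.32 CPM per kb in C28PLT.

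In the cold, PIF1, PIF4 and PIF5 transcripts fell and those of HY5 and HYH rose, in first and in second cold, while PIF3 and PIF7 passed the test against 0 h at no time. Each gene was tested against 0 h at 5 times in 3 conditions with edgeR's quasi-likelihood test, and "rose", "fell" and "called" refer to a Benjamini-Hochberg adjusted p under 0.05 over 20720 genes. Of 105 pairs of member and contrast, 18 rose and 30 fell, against 8.57% and 7.85% of all genes and contrasts. PIF1 fell in 12 of its 15 contrasts, PIF4 in 9 and PIF5 in 9, and HY5 rose in 10 and HYH in 8. None of the 7 was called at 2 h in any condition in this fit, against 2.78% of all genes in C28PLT, 1.96% in C35P and 0.391% in C28P. With an offset for transcript length and a block for experiment, edgeR called HYH higher at 2 h in C35P (1.01, adjusted p = 0.0183) and C28P (0.98, adjusted p = 0.0466). The shares of all genes that rose and fell were 7.51% and 5.22% in C28PLT, 5.65% and 4.61% in C35P and 4.03% and 3.88% in C28P at 4 h. At 6 h they were 9.7% and 8.22% in C28PLT, 8.92% and 8.57% in C35P and 8.38% and 9.71% in C28P. At 12 h they were 14.1% and 12.5% in C28PLT, 12.6% and 12.5% in C35P and 10.7% and 10.5% in C28P. Between neighbouring times, 3 of 84 pairs of member and contrast rose and 8 fell, against 0.509% and 0.408% of all genes and contrasts. Of the 48 calls, 35 held whichever single library of the 2 groups was left out: 10 of 12 for PIF1, 7 of 9 for PIF4, 8 of 9 for PIF5, 5 of 10 for HY5 and 5 of 8 for HYH.

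**Figure D1:**
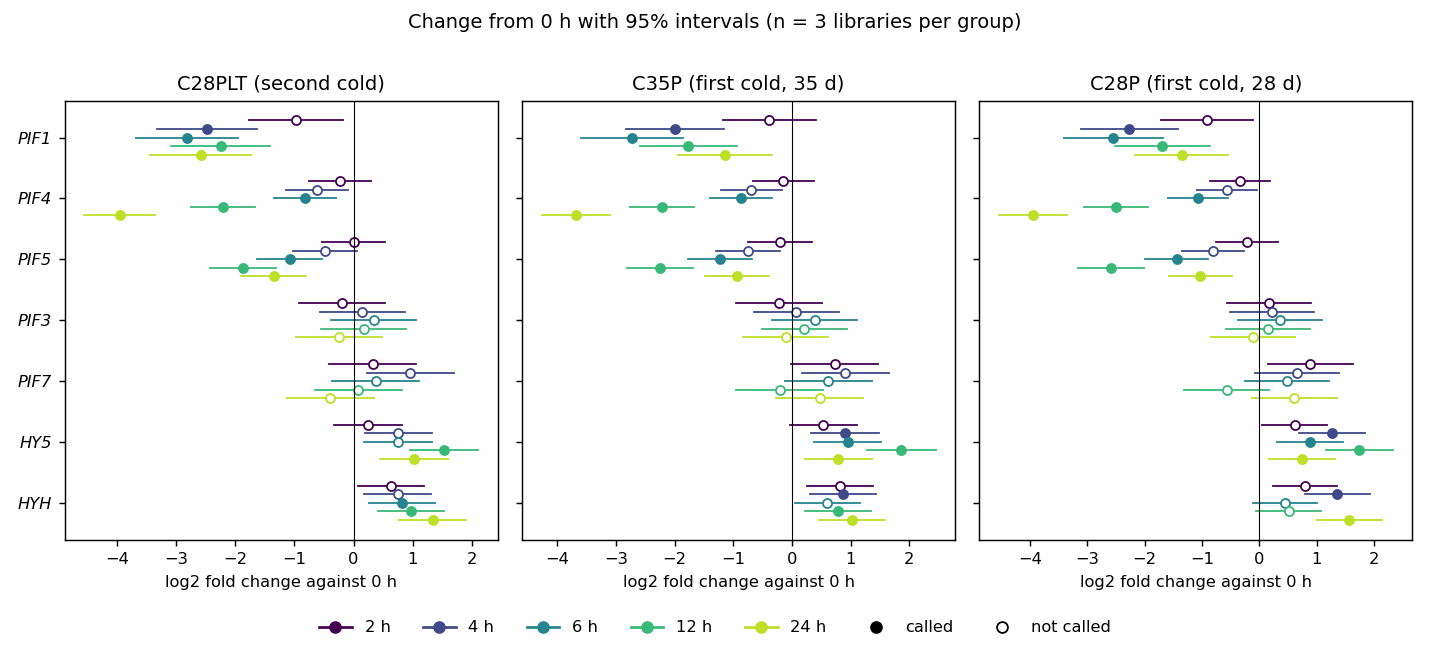
Log2 fold change against 0 h (x axis) of each member (rows) at 5 times (colours) in C28PLT, C35P and C28P, with 95% intervals from edgeR's fit; filled points passed the test. PIF4 at 24 h lies farthest from 0, between -3.96 and -3.68, and no 2 h point is filled.

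PIF4 had its lowest level at the last time sampled in each condition. This factor promotes hypocotyl and petiole elongation and is the main PIF of warm-temperature growth. Its gene lies on the plus strand at chr2:17886101-17889087 (TAIR10.1), with 2597 bases of exon. Its 250 bases upstream of the annotated start are shown because PIF4 and PIF5 fell together over the first 12 h and then parted, and because light-regulated factors bind ACGT-containing elements there in many genes. Capitals mark matches to the motifs searched on both strands, here the ACGT core, whose first bases lie 152, 45 and 30 bases upstream.
PIF4 chr2:17885851-17886100, plus strand: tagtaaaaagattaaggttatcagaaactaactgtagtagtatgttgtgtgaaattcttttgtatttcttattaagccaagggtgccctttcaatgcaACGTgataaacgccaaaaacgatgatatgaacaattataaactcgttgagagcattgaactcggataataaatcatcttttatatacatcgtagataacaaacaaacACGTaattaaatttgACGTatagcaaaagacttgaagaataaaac
The window holds no G-box (CACGTG), and 44.1% of the 27443 gene promoters of this length hold an ACGT core.

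At 24 h PIF4 was at 2.42, 2.72 and 2.97 CPM in C28PLT libraries, against 49.4, 48.6 and 28.7 CPM at 0 h. C35P libraries held 2.23, 2.35 and 4.93 CPM at 24 h and 36.4, 45.8 and 39.7 CPM at 0 h. In C28P the levels were 2.90, 2.17 and 2.74 CPM at 24 h, against 32.0, 47.2 and 41.8 CPM at 0 h. In each condition the lowest 0 h library exceeded the highest 24 h library several-fold. The fall was 15.6-fold in C28PLT (log2 fold change -3.96, SE 0.30, edgeR adjusted p = 8.61e-13), 12.8-fold in C35P (-3.68, SE 0.29, adjusted p = 8.29e-12) and 15.5-fold in C28P (-3.95, SE 0.29, adjusted p = 1.97e-12). These 3 calls and those at 12 h held whichever library was left out.

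Steps of the decline between neighbouring times passed the test only from 6 h on. The times are unequally spaced, and rates of fall were not compared. PIF4 had not been called lower at 4 h, with log2 fold changes of -0.62 in C28PLT, -0.69 in C35P and -0.56 in C28P, but with the experiment blocked within each condition the C28PLT (-0.61, adjusted p = 0.0257) and C35P (-0.71, adjusted p = 0.0103) falls were. The length offset with a block for experiment called PIF4 lower at 4 h in each condition (-0.93, -0.89 and -0.77, adjusted p 0.00657 to 0.0336). At 6 h it had fallen by 0.83, 0.87 and 1.07 log2 units against 0 h in C28PLT, C35P and C28P. The 6 h calls were lost in C28PLT without 0 h replicate 1 or 2 or 6 h replicate 1 or 3 (-0.70, -0.72, -0.79 and -0.80, adjusted p 0.0635 to 0.0988), and in C35P without 0 h replicate 2 or 6 h replicate 1 or 2 (-0.77, -0.70 and -0.86, adjusted p 0.0503 to 0.115). Between 6 and 12 h PIF4 fell again, by 1.38 in C28PLT (SE 0.26, edgeR adjusted p = 0.00223), 1.35 in C35P (SE 0.26, adjusted p = 0.00221) and 1.44 in C28P (SE 0.27, adjusted p = 0.00123) on the log2 scale. Between 12 and 24 h it fell by a further 1.75 (adjusted p = 0.000518), 1.46 (adjusted p = 0.00285) and 1.45 (adjusted p = 0.00226) in the same order of conditions. Neighbouring levels at 0, 2, 4 and 6 h did not pass the test against each other. The C35P steps were lost without 12 h replicate 1 for 12 against 6 h (-1.08, adjusted p = 0.0505), and without 12 h replicate 3 or 24 h replicate 1 for 24 against 12 h (-1.15 and -1.26, adjusted p = 0.0702 and 0.0788). With replicate 2 left out of all groups, none of the called PIF4 steps held in any condition (edgeR adjusted p 0.0703 to 0.451).

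PIF5 fell with PIF4 up to 12 h and then regained part of its level. PIF5 acts beside PIF4 in elongation growth, shade responses and leaf senescence. Its gene lies on the minus strand at chr3:21827905-21830837, with 2561 bases of exon, and its upstream window is shown for comparison with that of PIF4. Capitals mark a G-box whose first base lies 165 bases upstream, the element that PIFs and HY5 are known to bind.
PIF5 chr3:21830838-21831087, minus strand: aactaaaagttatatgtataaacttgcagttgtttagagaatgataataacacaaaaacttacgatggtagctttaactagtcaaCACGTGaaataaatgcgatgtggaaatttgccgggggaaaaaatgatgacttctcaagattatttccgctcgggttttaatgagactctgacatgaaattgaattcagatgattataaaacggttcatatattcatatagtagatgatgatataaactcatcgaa
A G-box was found in 6.49% of the 27443 promoters, and this window is the only member's that holds CACGTG.

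PIF5 was lowest at 12 h, with 15, 12.6 and 20.5 CPM in C28PLT libraries, against 61.4, 62.2 and 52.3 CPM at 0 h. C35P libraries had 7.46, 14.4 and 18.2 CPM at 12 h, against 63.8, 66.0 and 60.6 CPM at 0 h. C28P libraries had 5.99, 11.2 and 11.3 CPM at 12 h, against 48.1, 73.3 and 50.3 CPM at 0 h. No 12 h library reached any 0 h library of its condition. PIF5 fell 3.65-fold in C28PLT (log2 fold change -1.87, SE 0.28, edgeR adjusted p = 1.93e-06), 4.76-fold in C35P (-2.25, SE 0.28, adjusted p = 8.49e-08) and 6.03-fold in C28P (-2.59, SE 0.28, adjusted p = 1.57e-08). It had already fallen at 6 h, with log2 fold changes of -1.08, -1.23 and -1.44 in the same order. The 4 h differences in C35P (-0.75) and C28P (-0.81) missed the threshold but passed it with the experiment blocked within each condition (-0.79, adjusted p = 0.0191, and -0.81, adjusted p = 0.0190) and under DESeq2. Without the C28P 0 h library of Exp1, PIF5 was also called lower at 4 h in C28P (-0.92, adjusted p = 0.034, against -0.81, adjusted p = 0.0538 with it).

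By 24 h PIF5 stood at 23.4, 26.1 and 19.3 CPM in C28PLT, 41.2, 25.4 and 32.6 CPM in C35P and 31.5, 24.9 and 27.7 CPM in C28P. These libraries were above all 12 h libraries of their condition in C35P and C28P, and overlapped them in C28PLT, where the highest 12 h library had 20.5 CPM and the lowest 24 h library 19.3 CPM. Against 12 h, PIF5 rose in C35P by 1.31 log2 units (SE 0.27, edgeR adjusted p = 0.0119) and in C28P by 1.56 (SE 0.28, adjusted p = 0.00109), and in C28PLT the change was 0.52 (SE 0.27, adjusted p = 0.477). Whether the rebound differed between the conditions was not tested. Against 0 h, PIF5 was still lower at 24 h, by 1.35 log2 units in C28PLT (adjusted p = 0.000208), 0.94 in C35P (adjusted p = 0.00741) and 1.03 in C28P (adjusted p = 0.00356). The C35P call at 24 h was lost without 24 h replicate 2 (-0.78, adjusted p = 0.0522). The C35P rebound was lost without 12 h replicate 1 or 2 or 24 h replicate 1 (1.02, 1.37 and 1.12, adjusted p 0.0548 to 0.151) and with an offset for transcript length (1.10, adjusted p = 0.0515). The falls of PIF5 between 6 and 12 h were called in C35P (-1.02, adjusted p = 0.0308) and C28P (-1.15, adjusted p = 0.0152), and both were lost with the length offset (adjusted p = 0.0533 and 0.0685). With a block for experiment added to that offset, both falls and the C35P rebound were called. The falls were also lost without 12 h replicate 1 or 2 or 6 h replicate 2 or 3 in C35P (-0.74, -1.08, -1.08 and -0.77, adjusted p 0.0542 to 0.321) and without 12 h replicate 1 or 6 h replicate 3 in C28P (-0.91 and -1.03, adjusted p = 0.112 and 0.0966). With replicate 2 left out of all groups, neither these falls nor the rebounds in C35P and C28P held (edgeR adjusted p 0.107 to 0.345). In C28PLT the step of -0.79 (adjusted p = 0.134) was called with the experiment blocked within the condition (adjusted p = 0.0437).

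**Figure D2:**
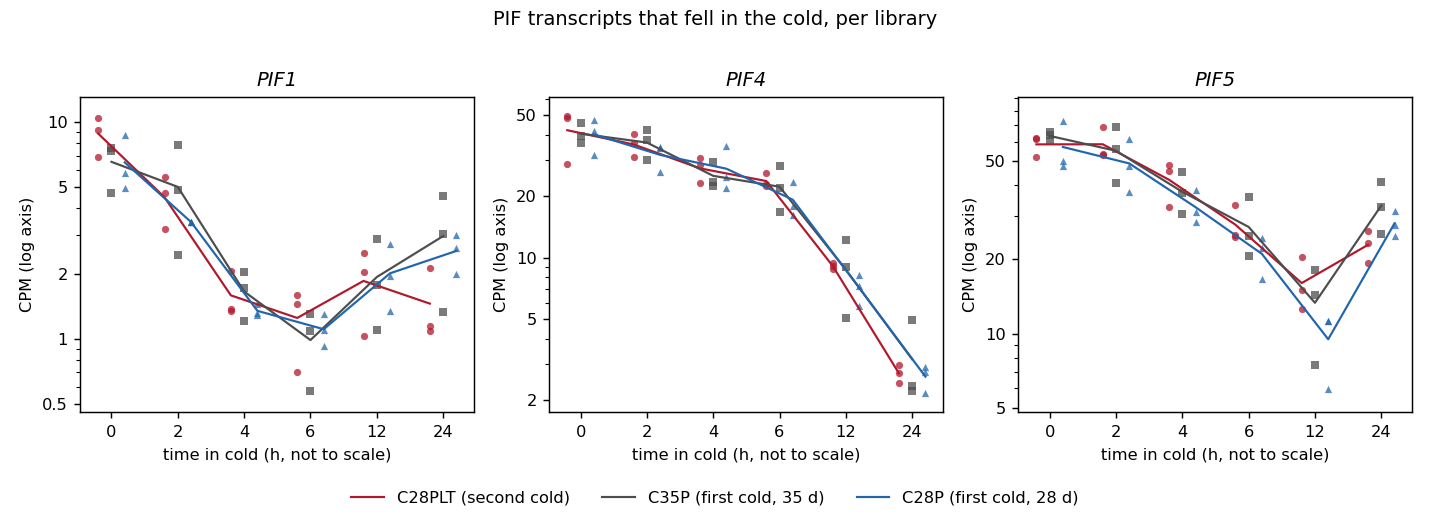
CPM (log axis) of PIF1, PIF4 and PIF5 in each of 54 libraries by time in the cold (axis not to scale); points are libraries and lines join group means of C28PLT, C35P and C28P. PIF4 declines to between 2.17 and 4.93 CPM at 24 h, while group means are lowest at 12 h for PIF5 and at 6 h for PIF1 in each condition.

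The ratio of PIF5 to PIF4 within a library, on the scale of CPM per kb, shows their parting. It lay between 0.935 and 2.36 in all libraries from 0 to 12 h. At 24 h it was 6.61 to 9.79 in C28PLT, 6.72 to 18.8 in C35P and 10.3 to 11.6 in C28P. No 24 h library overlapped a library of an earlier time.

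PIF1 fell at 4 h in each condition and was also called lower than at 0 h at 6, 12 and 24 h. This factor represses seed germination and chlorophyll synthesis in darkness; its gene lies on the minus strand at chr2:8704024-8707009, with 2344 bases of exon. At 6 h PIF1 was at 1.59, 1.45 and 0.704 CPM in C28PLT, against 9.19, 10.5 and 6.88 CPM at 0 h. It was at 1.3, 0.572 and 1.09 CPM in C35P, against 4.73, 7.59 and 7.35 CPM at 0 h. In C28P it was at 1.3, 0.927 and 1.10 CPM, against 4.97, 5.83 and 8.76 CPM at 0 h. The 6 h and 0 h libraries did not overlap in any condition. The fall was 7.04-fold in C28PLT (log2 fold change -2.81, SE 0.43, edgeR adjusted p = 3.10e-06), 6.60-fold in C35P (-2.72, SE 0.43, adjusted p = 6.87e-06) and 5.85-fold in C28P (-2.55, SE 0.43, adjusted p = 3.44e-05). It was already called at 4 h, at -2.48, -1.99 and -2.27 log2 units, and again at 12 h, at -2.25, -1.76 and -1.69. The step between 2 and 4 h missed the threshold (adjusted p 0.0548 to 0.0944) but passed it with the experiment blocked within each condition, at -1.51 (adjusted p = 0.0275), -1.56 (adjusted p = 0.0263) and -1.36 (adjusted p = 0.0431) in C28PLT, C35P and C28P. DESeq2 called it too (adjusted p = 0.0133, 0.0101 and 0.041), and the length offset called it in C28PLT and C35P.

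At 24 h PIF1 had 1.14, 2.13 and 1.08 CPM in C28PLT, 3.03, 1.33 and 4.58 CPM in C35P and 2.63, 3.01 and 1.99 CPM in C28P. All 24 h libraries were below the 0 h libraries of their condition, although in C35P the highest 24 h library (4.58 CPM) lay close to the lowest 0 h library (4.73 CPM). The fall against 0 h was 2.59 log2 units in C28PLT (SE 0.42, edgeR adjusted p = 1.02e-05), 1.14 in C35P (SE 0.40, adjusted p = 0.0279) and 1.35 in C28P (SE 0.40, adjusted p = 0.00949). The C35P call was lost without 0 h replicate 2 or 3 or 24 h replicate 1 or 2 (-1.02, -1.05, -1.15 and -0.79, adjusted p 0.0726 to 0.168), and the C28P call without 0 h replicate 3 or 24 h replicate 3 (-1.11 and -1.20, adjusted p = 0.0658 and 0.0526). At most 323 reads stand behind any PIF1 value.

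PIF3 and PIF7 were called against 0 h at no time, which does not show that they were unchanged. PIF3, the founding PIF, acts in seedling greening and is reported to repress CBF cold genes; its gene lies on the plus strand at chr1:3075768-3079654, with 2762 bases of exon. PIF3 ranged from 1.70 to 6.06 CPM over all 54 libraries. At 24 h its log2 fold change was -0.24 in C28PLT (95% interval -0.97 to 0.48), -0.11 in C35P (-0.83 to 0.62) and -0.11 in C28P (-0.84 to 0.62). The 6 h intervals reached higher, from -0.39 to 1.06 in C28PLT, -0.34 to 1.11 in C35P and -0.37 to 1.095 in C28P. PIF7, a shade and warm-day factor that also represses CBF genes in long days, lies on the minus strand at chr5:24638491-24640765, with 1953 bases of exon. PIF7 ranged from 4.75 to 19.5 CPM. Its highest group means were at 2 or 4 h and its lowest in C35P and C28P at 12 h, with 4.75, 4.89 and 7.12 CPM in C35P and 5.26, 5.19 and 4.78 CPM in C28P.

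The largest PIF7 difference from 0 h was in C28PLT at 4 h. Its libraries held 19.5, 17.3 and 8.99 CPM, against 10.4, 6.53 and 6.62 CPM at 0 h, with 1 library of each group overlapping. The log2 fold change was 0.96 (SE 0.37, edgeR adjusted p = 0.0791) without and 0.95 (adjusted p = 0.0434) with the experiment blocked within each condition. Blocking also made PIF7 higher at 24 h than at 12 h in C28P (1.17, adjusted p = 0.0454; 1.18, adjusted p = 0.127 without the block). Without the C28P 0 h library of Exp1, where PIF7 was at 11.8 CPM against 6.00 and 4.81 CPM in the others, PIF7 was called higher in C28P at 24 h, by 1.09 (adjusted p = 0.0336) in place of 0.61 (adjusted p = 0.21). PIF1 shares 134 exon bases with AT2G20170 and PIF7 318 with AT5G61260, both on the opposite strand and with 0 to 3 and 0 to 13 counts per library.

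HY5 rose within 4 h in first cold and was highest at 12 h. HY5 is the central positive factor of light-type development and binds ACGT-core elements; its gene lies on the minus strand at chr5:3593335-3595073, with 1256 bases of exon. The upstream windows of HY5 and its homolog HYH are shown because both transcripts rose and because PIF and HY5 sites share letters. In HY5 the capitals mark a PBE-box (CATGTG), a PIF-bound E-box variant found in 11.1% of promoters, whose first base lies 138 bases upstream, and an ACGT core 8 bases upstream. In HYH they mark an ACGT core 55 bases upstream.
HY5 chr5:3595074-3595323, minus strand: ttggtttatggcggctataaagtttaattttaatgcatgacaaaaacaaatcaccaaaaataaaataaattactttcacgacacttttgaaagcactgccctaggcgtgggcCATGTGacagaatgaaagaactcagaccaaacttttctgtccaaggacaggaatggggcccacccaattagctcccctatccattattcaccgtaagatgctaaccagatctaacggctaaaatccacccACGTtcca
HYH chr3:6023594-6023843, plus strand: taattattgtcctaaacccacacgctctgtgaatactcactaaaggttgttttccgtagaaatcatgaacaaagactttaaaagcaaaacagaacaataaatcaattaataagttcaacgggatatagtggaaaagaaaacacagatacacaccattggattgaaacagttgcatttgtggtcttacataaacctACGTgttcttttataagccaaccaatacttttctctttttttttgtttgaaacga
None of the 4 printed windows held the evening element (AAAATATCT, in 2.36% of promoters), the CCA1-binding site (AAAAATCT, 6.69%) or the DRE core (CCGAC, 12%). Of the windows not printed, that of PIF7 held a DRE core, and those of PIF1 and PIF3 held none of the 6 motifs.

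At 12 h HY5 was at 50.8, 44.2 and 53 CPM in C28PLT, against 18, 16.2 and 17.0 CPM at 0 h. C35P libraries held 30.2, 51.5 and 55.8 CPM at 12 h and 10.0, 10.8 and 17.0 CPM at 0 h. In C28P the values were 31.3, 62.3 and 43.6 CPM at 12 h, against 13.8, 10.7 and 16.5 CPM at 0 h. All 12 h libraries were above all 0 h libraries. HY5 rose 2.89-fold in C28PLT (log2 fold change 1.53, SE 0.29, edgeR adjusted p = 7.66e-05), 3.63-fold in C35P (1.86, SE 0.29, adjusted p = 4.84e-06) and 3.34-fold in C28P (1.74, SE 0.29, adjusted p = 2.18e-05), and these calls held whichever library was left out. At 4 h it rose in C35P (0.90, adjusted p = 0.032) and C28P (1.27, adjusted p = 0.00294), and in C28PLT the difference of 0.76 missed the threshold (adjusted p = 0.0705) but was called with the experiment blocked within each condition (0.74, adjusted p = 0.0327) and with the length offset (0.89, adjusted p = 0.00906). The C28PLT difference at 6 h was likewise called with the block (0.73, adjusted p = 0.0273) and with the length offset (0.84, adjusted p = 0.00978), and missed the threshold without them (0.75, adjusted p = 0.0587).

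The mean level of HY5 was highest at 12 h in each condition, but how far it stood apart from its neighbours in time depended on the fit. With the experiment blocked within each condition, HY5 was higher at 12 than at 6 h by 0.80 in C28PLT (adjusted p = 0.0473), 0.91 in C35P (adjusted p = 0.0234) and 0.86 in C28P (adjusted p = 0.0334). It then fell between 12 and 24 h by 1.07 in C35P (adjusted p = 0.016) and 0.96 in C28P (adjusted p = 0.0216). In the edgeR fit without the block, none of these steps passed the test (adjusted p 0.0718 to 0.166). DESeq2 called the steps between 12 and 24 h in C35P (adjusted p = 0.028) and C28P (adjusted p = 0.0357), and the length offset called both C35P steps (adjusted p = 0.0314 and 0.0367). Against 4 h, the 12 h level passed the test in C35P (0.96, adjusted p = 0.0328) but not in C28PLT (0.77, adjusted p = 0.0898) or C28P (0.48, adjusted p = 0.38). In C28PLT the 24 h libraries held 39.9, 26.6 and 37.2 CPM, a step of -0.52 from 12 h (adjusted p = 0.501).

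Against 0 h, HY5 was still higher at 24 h, by 1.02 in C28PLT (SE 0.28, edgeR adjusted p = 0.00636), 0.79 in C35P (SE 0.28, adjusted p = 0.0325) and 0.74 in C28P (SE 0.28, adjusted p = 0.0439). The C35P libraries held 16.7, 27.1 and 21.6 CPM at 24 h and overlapped the highest 0 h library, at 17.0 CPM, while the C28P libraries held 23.2, 25.1 and 20.5 CPM and did not overlap 0 h. The C28P call was lost when any of its 6 libraries was left out (0.60 to 0.88, adjusted p up to 0.188), including the Exp1 0 h library (0.75, adjusted p = 0.0702), and under DESeq2's Wald test (0.70, adjusted p = 0.0583). The C35P call was lost without 0 h replicate 1 or 2 or 24 h replicate 2 or 3 (0.65, 0.69, 0.60 and 0.79, adjusted p 0.0585 to 0.163). The C35P calls at 4 and 6 h were each lost without 0 h replicate 1 or 2 or the Exp2 cold library (adjusted p 0.0661 to 0.211), and the C28P call at 6 h without Exp2 at 0 or 6 h (0.73 and 0.56, adjusted p = 0.139 and 0.18).

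HYH rose as well, and its group mean was highest at 24 h in each condition. That mean did not pass edgeR's test against the next highest one, at 12 h in C28PLT (adjusted p = 0.674) and at 4 h in C35P (adjusted p = 0.796) and C28P (adjusted p = 0.684). HYH acts partly redundantly with HY5; its gene lies on the plus strand at chr3:6023844-6024710, with 775 bases of exon. At 24 h HYH was at 72.2, 55.9 and 58.6 CPM in C28PLT, against 21.6, 26.5 and 25.7 CPM at 0 h. It was at 65.7, 58.6 and 41.9 CPM in C35P, against 33.0, 22.3 and 26.6 CPM at 0 h. In C28P it was at 86.9, 68.4 and 81.1 CPM, against 33.6, 18.2 and 28.0 CPM at 0 h. The groups did not overlap in any condition. HYH rose 2.53-fold in C28PLT (log2 fold change 1.34, SE 0.28, edgeR adjusted p = 0.000351), 2.03-fold in C35P (1.02, SE 0.28, adjusted p = 0.00497) and 2.97-fold in C28P (1.57, SE 0.28, adjusted p = 5.30e-05), and these calls held whichever library was left out.

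Before 24 h the conditions were called at different times, which is no test of a difference between them. In C28P HYH rose at 4 h, to 72.0, 69.9 and 62.2 CPM (1.36, adjusted p = 0.00123), and the 6 and 12 h differences of 0.45 and 0.51 were not called. The 4 h call was lost in edgeR with replicate 2 or 3 left out of all groups (1.17 and 1.45, adjusted p = 0.152 and 0.0502). Fitting only the 2 groups compared lost it too (1.36, adjusted p = 0.0503). That fit lost 4 HYH calls, the others in C35P at 4 and 12 h and in C28PLT at 6 h. With the length offset and a block for experiment, HYH was also called at 6 h in C28P (0.78, adjusted p = 0.0223) and C35P (0.80, adjusted p = 0.0191). Its rise in C28P between 12 and 24 h (1.06, adjusted p = 0.0485) was lost when any of its 6 libraries was left out (0.88 to 1.31, adjusted p up to 0.324). In C35P it rose at 4 h (0.87, adjusted p = 0.0355) and 12 h (0.78, adjusted p = 0.0337), and in C28PLT at 6 h (0.83, adjusted p = 0.0317) and 12 h (0.98, adjusted p = 0.00735). The C35P calls were lost without 0 h replicate 2 or 3, without 4 h replicate 1 or 2, and without 12 h replicate 2 or 3 (0.62 to 0.87, adjusted p 0.0854 to 0.201). The C28PLT call at 6 h was lost without any of its libraries but 6 h replicate 1 (0.54 to 0.88, adjusted p 0.0548 to 0.261). The C28PLT difference at 4 h missed the threshold (0.75, adjusted p = 0.0708) but was called with the experiment blocked within each condition (0.75, adjusted p = 0.0386) and with the length offset (1.06, adjusted p = 0.00967).

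**Figure D3:**
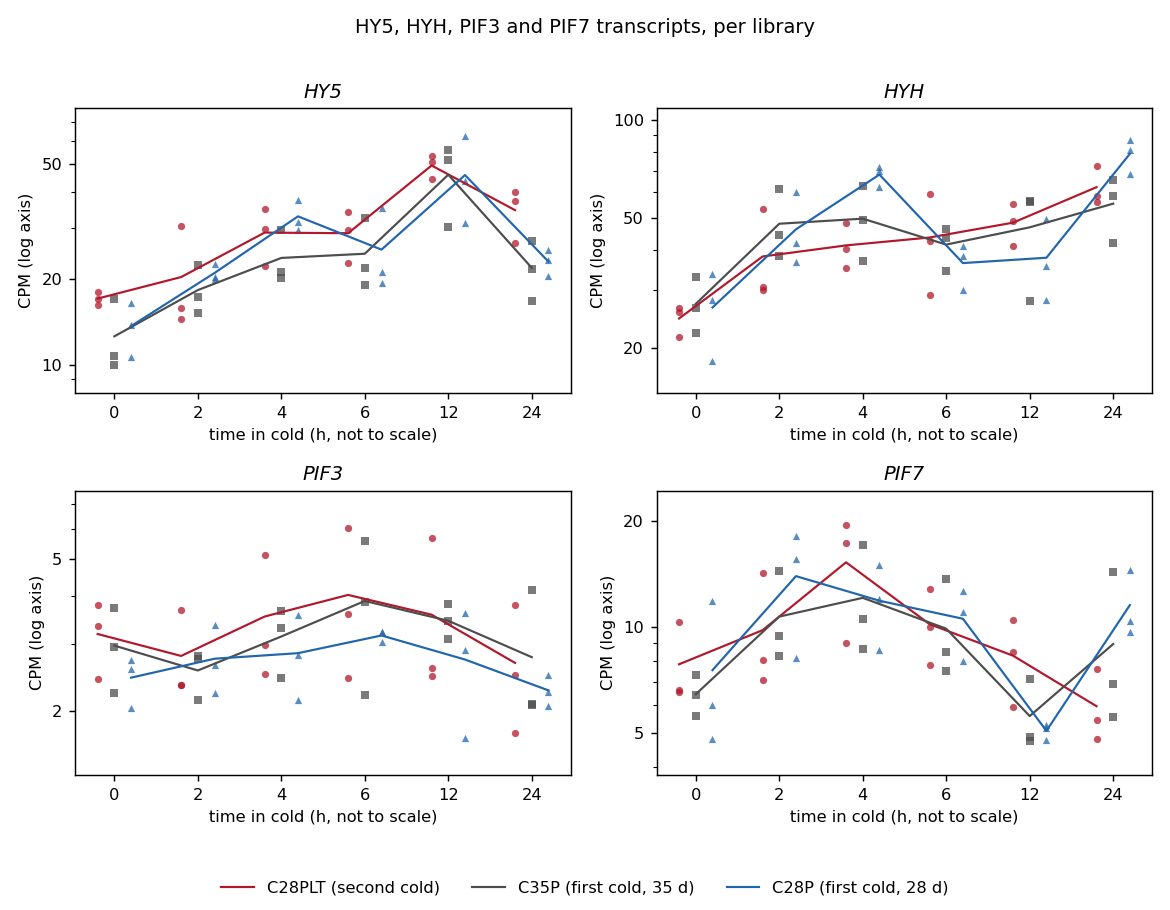
CPM (log axis) of HY5, HYH, PIF3 and PIF7 in each of 54 libraries by time in the cold (axis not to scale); points are libraries and lines join group means of C28PLT, C35P and C28P. Group means are highest at 12 h for HY5, with libraries between 30.2 and 62.3 CPM, and at 24 h for HYH, and PIF3 stays between 1.70 and 6.06 CPM.

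On the scale of CPM per kb, the ratio of HY5 to PIF4 within a library was higher at 12 and 24 h than at 0 h. The ratio was 0.689, 0.755 and 1.22 (lowest, median and highest library) at 0 h in C28PLT, 0.488, 0.570 and 0.886 in C35P and 0.470, 0.817 and 0.894 in C28P. At 12 h the medians were 11.6, 11.9 and 12.4, and at 24 h they were 25.9, 15.5 and 16.5 in the same order of conditions. The 24 h libraries ranged from 20.2 to 34.1 in C28PLT, 9.08 to 23.8 in C35P and 15.5 to 23.9 in C28P, all above every 0 h library, and the C28PLT range overlapped those of C35P and C28P. The ratio of HYH to HY5 was lowest at 12 h in each condition, with medians of 1.76, 1.63 and 1.29, and at 24 h medians were 2.93, 3.51 and 6.08. HYH was thus more abundant per kb than HY5 in each of these groups.

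**Figure D4:**
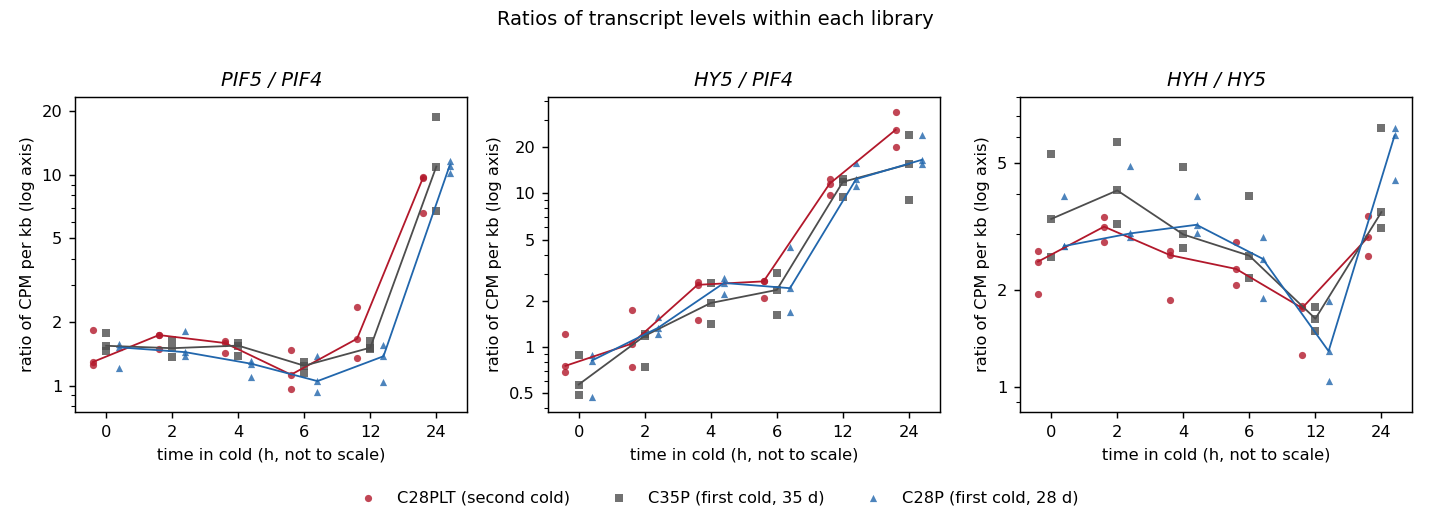
Ratios of CPM per kb (log axis) of PIF5 to PIF4, HY5 to PIF4 and HYH to HY5 in each library by time in the cold, with lines through the medians of C28PLT, C35P and C28P. PIF5 over PIF4 stays between 0.935 and 2.36 to 12 h and reaches 6.61 to 18.8 at 24 h.

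Across the 18 group means of log2 CPM, which share libraries and time courses, PIF5 and HY5 ran opposite each other most closely of all pairs of members, with a Pearson correlation of -0.877. PIF1 and HY5 followed at -0.704, PIF1 and PIF5 stood at 0.662, PIF4 and HYH at -0.640 and PIF4 and PIF5 at 0.626. Over the same 18 means, the genes among all tested whose course was most like that of PIF4 were SNG1 (0.995), GASA6 (0.994) and LHCB6 (0.988), a light-harvesting protein. For PIF5 they were RVE8 (0.976), a clock MYB-like factor, AT1G55960 (0.972) and SSL2 (0.971), and for PIF1 they were PIN4 (0.970), an auxin efflux carrier, AT5G18140 (0.959) and UGT75B1 (0.956). For HY5 they were RUP1 (0.924), which represses UV-B signalling, AT1G76570 (0.924) and AT5G64550 (0.921), and for HYH they were MSL5 (0.909), I-2 (0.907) and AT2G45060 (0.901). PIF3 (AT1G17147 at 0.873, AT1G58590 at 0.873, MSL3 at 0.868) and PIF7 (CIP1 at 0.924, AT1G21080 at 0.924, AT4G09630 at 0.914) had their closest courses among these genes. These are descriptions over 18 points.

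The question whether earlier priming changed these transcripts was addressed by C28PLT against C35P at each time and by the difference of their responses. None of the 7 was called in 42 pairs of member and time by edgeR (smallest adjusted p = 0.818), and DESeq2 called none, against 0.000804% of all genes and times. In edgeR 2 pairs had an unadjusted p under 0.05, both at 24 h. PIF1 was at 1.14, 2.13 and 1.08 CPM in C28PLT and 3.03, 1.33 and 4.58 CPM in C35P, which overlap, with a difference of -1.02 log2 units (SE 0.41, unadjusted p = 0.017, adjusted p = 0.818). HY5 was at 39.9, 26.6 and 37.2 CPM in C28PLT and 16.7, 27.1 and 21.6 CPM in C35P, which overlap by 1 library, with a difference of 0.66 (SE 0.28, unadjusted p = 0.0234, adjusted p = 0.818). Before the second cold, at 0 h, the differences of the 7 lay between -0.15 (HYH) and 0.43 (PIF1 and HY5), and none had an unadjusted p under 0.05.

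The response against 0 h at 24 h was compared directly. The PIF1 response in C28PLT minus that in C35P was -1.45 log2 units (SE 0.57, 95% interval -2.59 to -0.31, unadjusted p = 0.0142, edgeR adjusted p = 0.967). The PIF4 response differed by -0.28 (interval -1.04 to 0.48), that of PIF5 by -0.42 (-1.18 to 0.35) and that of PIF7 by -0.86 (-1.91 to 0.18). HY5 differed by 0.23 (-0.58 to 1.04), HYH by 0.32 (-0.47 to 1.11) and PIF3 by -0.14 (-1.17 to 0.89). No response difference was called over the 5 times in 35 pairs (1 with an unadjusted p under 0.05), by edgeR or by DESeq2, against 0% of all genes. Equal responses are not shown by these intervals, which rest on 3 libraries per group.

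**Figure D5:**
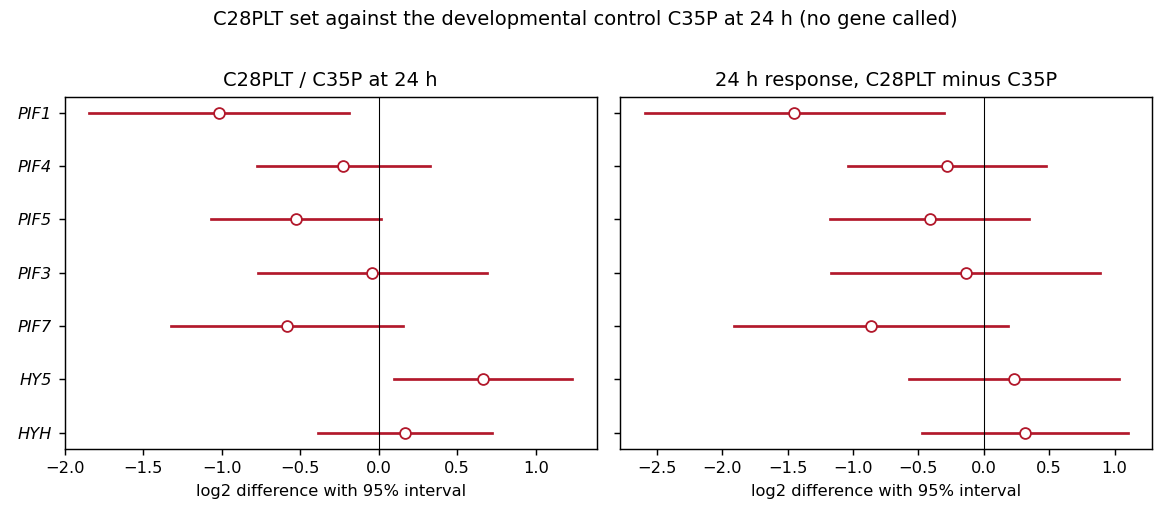
Log2 difference between C28PLT and C35P at 24 h (left) and between their 24 h responses against 0 h (right), with 95% intervals from edgeR's fit for the 7 genes. Open points did not pass the test; the interval of the PIF1 response, -2.59 to -0.31, lies wholly below 0 before adjustment.

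Plant age at first cold was compared as C35P against C28P. None of 42 pairs was called by edgeR or by DESeq2, none had an unadjusted p under 0.05, and 0.00402% of all genes and times were called. The differences at 0 h lay between -0.23 for PIF7 and 0.28 for PIF3, and those at 24 h between -0.51 for HYH and 0.29 for PIF3. At 0 h PIF7 was at 11.8 CPM in the C28P library of Exp1 and 6.00 and 4.81 CPM in the others. C35P libraries held 6.40, 7.33 and 5.61 CPM, so the sign of the PIF7 difference rests on that Exp1 library. Responses of C35P minus C28P gave 0 calls of 35 by edgeR and DESeq2, with no unadjusted p under 0.05, against 0% of all genes. C28PLT against C28P at 0 h, the state after priming and lag against the state before it, gave 0 calls of 7 by edgeR and DESeq2, with no unadjusted p under 0.05, against 0.125% of all genes; differences ran from -0.11 (HYH) to 0.44 (PIF1).

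Light receptors and the turnover machinery act upstream of the members. At 24 h against 0 h, 1 of 8 photoreceptors rose and 1 fell in C28PLT, 2 rose in C35P and 0 were called in C28P, against 14.6%, 14.7% and 13.9% of all genes risen and 11.3%, 14% and 15.3% fallen. Leaving out the C28P 0 h library of Exp1, 1 rose in C28P, PHYE (1.54, adjusted p = 0.0327, against 0.53, adjusted p = 0.468 with it), named after its values were seen. The UV-B receptor UVR8 rose in C28PLT (0.61, edgeR adjusted p = 0.0152) and C35P (0.62, adjusted p = 0.0128), and the blue light receptor CRY2 rose in C35P, with 38.5 against 16.9 CPM (1.18, adjusted p = 0.0333). Of 8 genes of PIF and HY5 turnover, 1 rose in C28PLT, 2 in C35P and 2 in C28P, and none fell. SPA4, a partner of COP1, rose in all conditions, with 22.0 against 11.1 CPM in C28PLT (0.99, adjusted p = 0.0138), 24.1 against 11.1 CPM in C35P (1.11, adjusted p = 0.0053) and 27.9 against 10.1 CPM in C28P (1.46, adjusted p = 0.000393). EBF2, an F-box protein known for EIN3 and PIF3 turnover, rose in C35P (1.11, adjusted p = 0.0453). Without the C28P 0 h library of Exp1, 5 of the 8 rose in C28P at 24 h, then including COP1 (1.14, adjusted p = 0.00711, against 0.69, adjusted p = 0.0828 with it) and SPA1 (1.23, adjusted p = 0.0129, against 0.59, adjusted p = 0.228 with it), both chosen after their values were seen, against 16.2% of all genes. Median log2 fold changes of this list were 0.30, 0.62 and 0.64 in C28PLT, C35P and C28P, beside 0.02, 0.05 and 0.04 over all genes.

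Among partners and inhibitors of PIFs, 3 of 10 tested rose and 0 fell in C28PLT at 24 h, 4 rose and 1 fell in C35P, and 1 rose and 1 fell in C28P, where 13.9% of all genes rose and 15.3% fell (14.6% and 11.3% in C28PLT, 14.7% and 14% in C35P). ELF3, the evening-complex core protein that represses PIF4, rose 5.49-fold in C28PLT (adjusted p = 0.00261), 7.91-fold in C35P (adjusted p = 0.000369) and 3.36-fold in C28P (adjusted p = 0.0229), at means of 6.97 against 1.26, 8.79 against 1.07 and 8.45 against 2.50 CPM. ELF3 rose 10.1-fold in C28P without the Exp1 0 h library (adjusted p = 0.000228). ELF4, another evening-complex protein, was at 26.5, 15.9 and 79.0 CPM at 24 h in C28PLT, against 1.00, 7.44 and 1.67 CPM at 0 h (3.57, adjusted p = 0.000595). It was at 6.06, 20.5 and 29.9 CPM in C35P at 24 h, against 1.10, 2.04 and 1.82 CPM (3.49, adjusted p = 0.000893). In C28P the 0 h library of Exp1 held 44.0 CPM against 1.93 and 1.76 CPM in the others, and ELF4 was called at 24 h only without it (3.0, adjusted p = 0.00111; -0.10, adjusted p = 0.933 with it). PAR2, an atypical bHLH that binds PIFs, fell in C35P (-1.76, adjusted p = 0.00496) and C28P (-2.24, adjusted p = 0.000582). The list's medians were 0.92, 1.26 and 0.17, beside 0.02, 0.05 and 0.04 over all genes, in C28PLT, C35P and C28P. Without the Exp1 0 h library, 2 rose and 1 fell in C28P, with a median of 0.88.

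Growth genes known as PIF targets fell or were not called at 24 h. Of 13, 2 fell in C28PLT, 5 in C35P and 3 in C28P, and none rose, with medians of -0.97, -0.68 and -0.70 beside 0.02, 0.05 and 0.04 over all genes. Of all genes 11.3% fell in C28PLT, 14% in C35P and 15.3% in C28P. At 4 h, 2 of the 13 rose and 2 fell in C28PLT, 2 rose and 0 fell in C35P and 0 were called in C28P, with medians of 0.72, 0.42 and 0.24. Of all genes, 7.51% rose and 5.22% fell at 4 h in C28PLT, 5.65% and 4.61% in C35P and 4.03% and 3.88% in C28P. XTH15, a cell-wall xyloglucan enzyme, was at 0.946, 0.279 and 0.640 CPM at 24 h in C35P, against 7.98, 4.29 and 3.02 CPM at 0 h (-3.02, adjusted p = 0.00452). IAA6, an auxin-response repressor, was at 0.918, 1.02 and 0.544 CPM in C35P at 24 h, against 14.4, 3.83 and 0.910 CPM at 0 h, which overlap (-2.93, adjusted p = 0.000613). XTH33 was at 4.59, 0.619 and 1.18 CPM in C35P at 24 h, against 38.5, 0.964 and 0.473 CPM at 0 h (-2.63, adjusted p = 0.023), so that 1 library of 0 h set its mean. In C28PLT the fallen genes were PRE1 and PRE5, HLH growth regulators outside the naming rule and named here after their values were seen. PRE1 was at 10.5, 3.06 and 3.81 CPM at 24 h in C28PLT, against 18.9, 17.3 and 24.7 CPM at 0 h (-1.82, adjusted p = 0.00622).

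The B-box proteins listed here are known as partners of HY5, whether they help or hinder it. Their effect on HY5 was not tested. Of 7 B-box partners, 4 rose in C28PLT, 3 in C35P and 2 in C28P, and none fell, against 14.6%, 14.7% and 13.9% of all genes risen, with medians of 1.27, 1.47 and -0.02 beside 0.02, 0.05 and 0.04 over all genes. In C28P 2 rose without the Exp1 0 h library too, and the median was 0.32. BBX29 rose 8.50-fold in C28PLT (112 against 13.1 CPM, adjusted p = 3.04e-07), 7.33-fold in C35P (76.6 against 10.4 CPM, adjusted p = 1.02e-06) and 9.45-fold in C28P (106 against 11.2 CPM, adjusted p = 2.21e-07). BBX25 rose by 1.27 in C28PLT, 1.47 in C35P and 1.28 in C28P (adjusted p = 0.0357, 0.0142 and 0.0317), and the C28P call was lost without the Exp1 0 h library (1.21, adjusted p = 0.0741). BBX22 rose in C28PLT (2.27, adjusted p = 0.00188) and C35P (1.77, adjusted p = 0.0124), and in C28P its value rests on the Exp1 0 h library, with 81.1 CPM against 4.92 and 3.95 CPM in the others (-1.31, adjusted p = 0.0558 with it and 1.45, adjusted p = 0.00119 without it).

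Of 11 HY5 targets, 8 rose in C28PLT at 24 h, 8 in C35P and 7 in C28P, and none fell, with medians of 2.48, 2.33 and 2.37 beside 0.02, 0.05 and 0.04 over all genes. Of all genes 14.6%, 14.7% and 13.9% rose. Without the C28P 0 h library of Exp1, 8 rose in C28P. The flavonol regulator MYB12 rose 10.1-fold in C28PLT, 11.4-fold in C35P and 7.11-fold in C28P, and the chloroplast photoprotection gene ELIP1 63.0-fold, 57.6-fold and 34.3-fold, reaching means of 3880, 2254 and 3191 CPM. ELIP2, its close paralog, rose 62.1-fold, 58.7-fold and 28.5-fold, and reads of the 2 genes could be shared between them. Without the Exp1 0 h library, the C28P rises were 19.7-fold for MYB12, 62.2-fold for ELIP1 and 55.9-fold for ELIP2. At 12 h, 8 rose and 1 fell in C28PLT, 8 rose and 2 fell in C35P, and 8 rose and 1 fell in C28P. Of all genes, 14.1% rose and 12.5% fell at 12 h in C28PLT, 12.6% and 12.5% in C35P and 10.7% and 10.5% in C28P. The targets that fell were GUN4 in C28PLT, HEMA1 and GUN4 in C35P and HEMA1 in C28P. Both are genes of tetrapyrrole synthesis and were named after their values were seen. The HEMA1 call in C28P (-0.78, adjusted p = 0.0185) was lost without the Exp1 0 h library (-0.56, adjusted p = 0.119), which left 8 risen and 0 fallen. Many of these genes respond to cold and light by other routes too, and the part of HY5 in their rise was not tested.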

How the data were processed

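Strand-specific (NEBNext Ultra Directional) RNA-seq libraries were made from whole rosettes. The authors deposited raw read counts per gene, and Trimmomatic, STAR 2.7.9a, DESeq2 and the build TAIR10 are named in the submitters' processing notes; for the strand setting, the annotation and multiply mapped reads the choice is not given in the sources used here. From the counts, genes were kept by filterByExpr (minimum count 10; 20720 of 36632), scaled by TMM and fitted with edgeR 4.0.16 (R 4.3.3), 1 coefficient per group over 54 libraries, with quasi-likelihood tests of 50 contrasts and Benjamini-Hochberg adjustment at 0.05. Intervals are 95% and log2 CPM used a prior count of 2. The procedure was tested on simulated data. Names, exon lengths and promoters came from the RefSeq annotation of TAIR10.1. Replicate numbers mark independent experiments per the labels. Deviations from group means of same-numbered libraries within a condition correlated at a median of 0.374 (135 pairs). Other-numbered ones stood at -0.167 (270 pairs), which is no separate evidence because deviations cancel out within a group. Across conditions the medians were 0.0598 for same-numbered (324 pairs) and -0.0125 for other-numbered libraries (648 pairs). Fits with the experiment blocked within each condition were therefore an alternative. A block shared by all conditions was another, and it was the one added to the length offset. Others were DESeq2 1.42.0, its size factors, no filter, only the 2 groups compared, and leaving out each replicate and each library; an offset for transcript length and the fit without the C28P 0 h library of Exp1 were chosen after seeing the data. Beyond the 7 members, the text names in each list up to 3 called genes with the largest change in C35P at 24 h and at least 1 CPM, and for each member the 3 genes of highest correlation. Members and lists were chosen with earlier results of these data known. No replicate pair agreed within sampling noise.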

Additional observations from a re-analysis of the deposited data

How the results depend on the processing

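No call of a member changed sign under any setting run. Of the 105 pairs of member and time against 0 h, 18 rose and 30 fell. Only the 2 groups compared gave 10 risen and 28 fallen, and the length offset with replicate block gave 25 risen and 36 fallen. Leaving out a replicate gave 6 to 12 risen and 20 to 28 fallen, and leaving out a single library gave 13 to 19 risen and 28 to 31 fallen. The 11 calls between neighbouring times became 21 with the replicate block per condition and experiment, 19 with the length offset and replicate block, 0 to 6 without a replicate and 9 to 12 without a single library. The replicate block changed no other count by over 1.5 times. Counts between conditions stayed at 0 under every setting run. Differences that were not called changed sign as follows, and the cause was not tested. PIF3 in C28PLT against C35P at 24 h (-0.04) was -0.554 to 0.439 without a replicate or library, 0.166 with the length offset and 0.182 with it and the block; its response (-0.14) was -0.826 to 0.274, 0.0808 and 0.0902. PIF4 at 24 h (-0.23) was -0.427 to 0.240, 0.0141 and 0.0522, and its response (-0.28) -0.521 to 0.185, the highest without C35P 24 h replicate 3. The HY5 response (0.23) was -0.131 to 0.630, below 0 without replicate 3 or C35P 0 h replicate 3. HYH at 24 h (0.17) was -0.194 with the length offset and -0.175 with the block added, and its response (0.32) -0.00686 with the offset. Depth limits PIF1 and PIF3 most.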

Other observations

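At 0 h, 2 listed genes were called lower between conditions: XTH33 and BBX22 in C28PLT against C28P, and BBX22 in C35P against C28P. XTH33 was at 0.348, 0.357 and 0.470 CPM in C28PLT, 38.5, 0.964 and 0.473 CPM in C35P and 9.84, 23 and 4.04 CPM in C28P, whose libraries all exceeded those of C28PLT. BBX22 was at 1.31, 4.71 and 2.86 CPM in C28PLT, 3.51, 4.09 and 3.39 CPM in C35P and 81.1, 4.92 and 3.95 CPM in C28P, where 1 library was far above the others. RUP1 at 24 h, chosen after its values were seen, was at 36, 17.6 and 32.2 CPM in C28PLT and 8.96, 19.7 and 15.2 CPM in C35P, which overlap by 1 library, a difference of 0.97 log2 units (SE 0.36, edgeR adjusted p = 0.818).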
